A study of Mus musculus with 8 samples.

Results

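The genes described here encode 9 secreted or surface proteins of innate defence that epithelia share with the liver and with leukocytes: Lbp, Cd14, C3, Cfb, Cd55, Pigr, Lcn2, Ltf and Hp. They were taken by symbol, as a list chosen by function and by the measured counts of Lbp, from the 53170 named genes of the deposited count table, and all 9 are among the 14058 genes that passed the filter on low counts. The group was put together with the strong rise of Lbp in YAP5SA organoids already known. The difference between the groups is therefore given for each of the 9 genes as a description, without a test.

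Bulk RNA was sequenced from organoids of mouse hindstomach epithelium, taken from embryos of embryonic day 18.5 and cultured for 5 days. The 4 control libraries have the genotype Shh-Cre. The 4 YAP5SA libraries have the genotype Shh-Cre;YAP5SA. Both groups thus carry the Cre recombinase under control of Shh, a gene expressed in the epithelium of the embryonic foregut, and they differ in YAP5SA, a form of the coactivator YAP that Hippo kinases can no longer restrain through its usual serine sites. Nothing in the labels ties each library to its own embryo or culture, so a p-value here reflects no more than the scatter among libraries, which may be technical.

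Total counts per library lay between 13672268 and 19710648. The level of a gene is its CPM, the count per 1000000 counts of the library after scaling, and group values are mean ± SD of 4 libraries. Fold changes compare YAP5SA with control. The groups also differed in sex, with Xist between 675.6 and 1049 CPM in every control library and between 0.41 and 2.76 CPM in every YAP5SA library, and with 4 Y-linked genes at 0.325 CPM or less in every control library and at 39.3 CPM or above in every YAP5SA library, so genotype and sex cannot be told apart in any result below. Mouse Yap1 was at 160.0 ± 7.2 and 153.3 ± 4.2 CPM, and it does not check the labels because they do not say whether the transgene is counted on the mouse gene. The epithelial markers Epcam, Cdh1, Krt8, Krt18 and Krt19 summed to 7452 to 7977 CPM in controls and 6147 to 6405 CPM in YAP5SA. Markers of glandular stomach summed to 2448 to 2609 CPM in controls and to 8.42 to 12.6 CPM in YAP5SA, with Cldn18 the most abundant in controls, so the markers of the tissue named in the labels were nearly absent from the YAP5SA libraries.

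The proteins act at several steps of defence at a mucosal surface. LBP and CD14 pick up bacterial lipopolysaccharide and hand it to the receptor TLR4 with its partner MD-2. C3 is the central protein of complement, a cascade of plasma and tissue proteases that tags and lyses microbes, factor B (Cfb) forms the enzyme of its alternative pathway, and CD55 dissociates that enzyme on the body's own cells. The polymeric immunoglobulin receptor (Pigr) carries IgA across epithelia into the lumen, lipocalin 2 (Lcn2) captures bacterial iron carriers, lactoferrin (Ltf) binds iron itself and haptoglobin (Hp) binds free haemoglobin. Many of these genes are known to be induced together through NF-kB, STAT3 and C/EBP factors during inflammation.

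The 9 genes did not move as a block. Lbp, Hp and Ltf were higher in YAP5SA, Cd14, Cd55, Pigr and Lcn2 were lower, and C3 and Cfb overlapped between the groups. In the fit over all genes, 3 of the 9 were past an adjusted p of 0.05 as higher, where 23.6% of all tested genes were, and 4 as lower, where 25.5% of all tested genes were. The groups did not overlap in 7 of the 9, against 45.7% of all tested genes. Because this same contrast chose the genes, nothing is read from these counts.

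**Figure D1:**
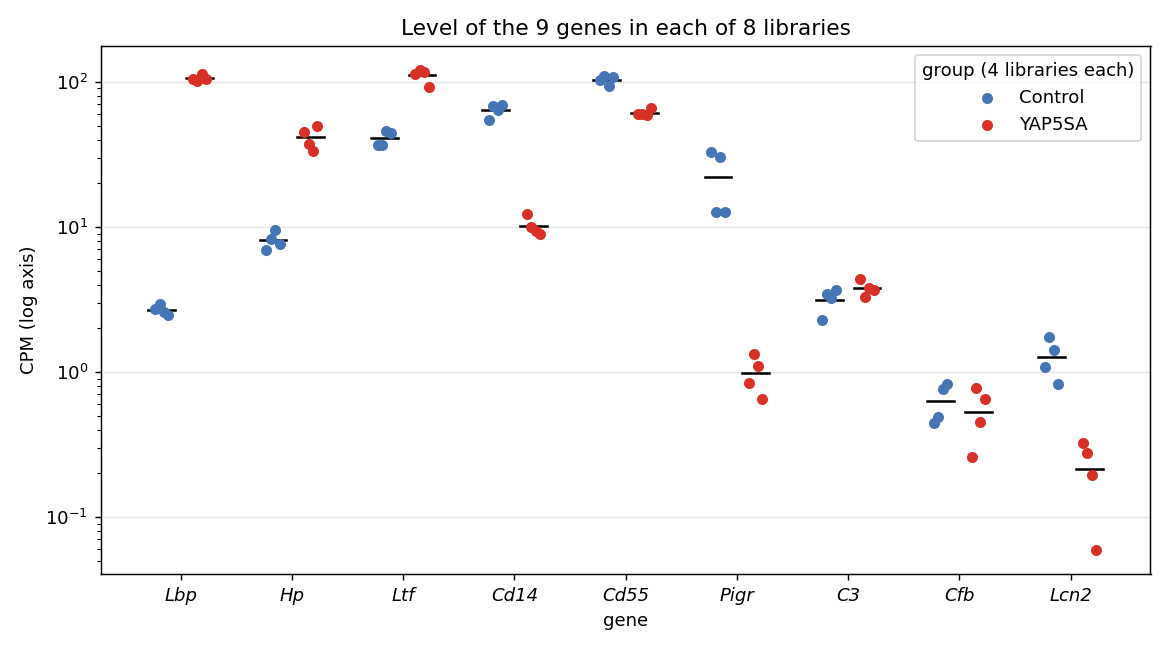
CPM (log axis) of the 9 genes in each of the 8 libraries, with 1 point per library and a bar at the mean of the 4 libraries of a group. Lbp, Hp and Ltf lie higher in all 4 YAP5SA libraries, Cd14, Cd55, Pigr and Lcn2 lie lower, and C3 and Cfb overlap.

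Recognition of lipopolysaccharide showed its carrier and its surface receptor in opposite directions. Lbp, which encodes the secreted lipopolysaccharide binding protein, had 2.72, 2.92, 2.60 and 2.48 CPM in the 4 controls and 105.1, 101.4, 112.9 and 103.9 CPM in the 4 YAP5SA libraries. All controls were low and all YAP5SA libraries high, with little spread inside either group (coefficients of variation 7.15% and 4.67%). The difference was 39.3-fold (log2 fold change 5.29 ± 0.09 SE), the 35th highest of the 14058 tested genes. Cd14, the co-receptor that takes lipopolysaccharide from LBP, had 54.6, 68.2, 63.8 and 69.0 CPM in controls and 12.2, 10.1, 9.33 and 8.89 CPM in YAP5SA. Every YAP5SA library was below every control, 6.33-fold lower by the fit (log2 fold change −2.66 ± 0.10 SE).

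Among other genes for sensing of microbial products, 18 of 26 listed genes were tested, and 5 of them were higher, 4 were lower and 9 missed the threshold, with a median log2 fold change of −0.02 (all tested genes: 49.1% changed, median 0.00). Tlr4, the signalling receptor for lipopolysaccharide, had 32.3 to 38.3 CPM in controls and 51.8 to 62.8 CPM in YAP5SA, a rise of 1.63-fold (adjusted p = 3.08e-07, quasi-likelihood test of edgeR, Benjamini-Hochberg adjusted). Ly96, which encodes MD-2, had 5.63 ± 1.16 and 4.70 ± 0.71 CPM and did not pass (adjusted p = 0.229, edgeR). The flagellin receptor gene Tlr5 rose 3.89-fold from 1.09 ± 0.34 CPM, and the inhibitory receptor gene Sigirr rose 1.39-fold. Tlr2, a receptor for bacterial lipopeptides, fell from 1.44 ± 0.33 to 0.11 ± 0.11 CPM. Nod2, an intracellular sensor of bacterial cell wall, had 59 counts over the controls and 3 over the YAP5SA libraries, a ratio of pooled levels of 19.3 (exact 95% interval 6.29 to 96.3, counting error only). The adaptor kinase gene Irak2 fell 1.49-fold, and Irak1 had 92.3 to 112.4 CPM in controls and 86.4 to 94.6 CPM in YAP5SA, which did not pass (adjusted p = 0.0722) except without control 2 or control 3 (adjusted p = 0.0404 and 0.0276, edgeR).

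The complement genes were low or moved little, apart from the regulators. C3 had 2.27, 3.47, 3.21 and 3.68 CPM in controls and 4.40, 3.26, 3.80 and 3.65 CPM in YAP5SA. The ranges overlap, and the log2 fold change of 0.26 ± 0.20 SE is close to its error. Cfb had 0.44, 0.49, 0.76 and 0.83 CPM in controls and 0.26, 0.77, 0.45 and 0.65 CPM in YAP5SA, from 42 and 36 counts in all. At this depth the ratio of pooled levels of Cfb, YAP5SA over control, was 0.87 (exact 95% interval 0.543 to 1.396, counting error only). The log2 fold change by the fit was −0.21 ± 0.41 SE, so a change in either direction within these errors could have been missed. Cfb lies beside C2 and is marked as overlapping another locus in GENCODE M21, and reads of overlapping genes cannot be told apart where strand handling is not given.

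Cd55, the decay-accelerating factor, had 102.5, 110.3, 93.0 and 107.8 CPM in controls and 59.9, 59.6, 58.9 and 66.5 CPM in YAP5SA. All YAP5SA libraries were lower, 1.69-fold by the fit (log2 fold change −0.75 ± 0.07 SE), the smallest difference of the 7 genes whose groups do not overlap. Its near-identical neighbour Cd55b was at 0.12 ± 0.07 and 0.04 ± 0.06 CPM, and reads shared between the copies make both values uncertain. Adgre5, which encodes CD97, the receptor that binds CD55, went the other way, from 63.2 ± 10.1 to 147.3 ± 4.7 CPM (2.34-fold, adjusted p = 4.04e-09, edgeR).

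Of 28 other complement components, 26 were too low to be tested, with at most 0.415 CPM on average in either group. The tested ones, C8g (1.37 ± 0.24 and 0.95 ± 0.28 CPM) and Cfp (0.79 ± 0.31 and 1.24 ± 0.30 CPM), did not pass with edgeR or DESeq2, and neither had an unadjusted p under 0.05. Complement regulators and receptors were tested in 8 of 21 cases, of which 5 fell, 1 rose and 2 did not pass, where 25.5% of all tested genes fell and 23.6% rose (median log2 fold change −0.50). Without YAP5SA 1 the number that rose was 2. Cfi, the protease factor I that cleaves active C3, fell from 46.5, 34.7, 38.3 and 31.0 CPM in controls to 0.26, 0.22, 0.45 and 0.53 CPM in YAP5SA. All YAP5SA libraries were at or below 0.53 CPM, a 102-fold lower level (adjusted p = 1.88e-14, edgeR). Cr1l, the rodent membrane regulator Crry, fell 1.36-fold, and Clu, the secreted chaperone clusterin that also blocks the terminal complex, fell from 14396.5 ± 722.9 to 5435 ± 378 CPM. C4bp, a soluble regulator that acts on C4, was the gene that rose, from 13.7 ± 2.3 to 29.0 ± 2.2 CPM (adjusted p = 2.02e-07, edgeR).

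Iron and haem binding genes divided, with Hp and Ltf higher and Lcn2 lower. Hp had 6.95, 8.29, 9.57 and 7.58 CPM in controls and 45.2, 37.3, 33.5 and 49.998 CPM in YAP5SA. The groups are well apart, and the YAP5SA libraries spread by 17.98% of their mean. The difference was 5.09-fold (log2 fold change 2.35 ± 0.13 SE). Ltf had 36.5, 36.6, 45.6 and 44.7 CPM in controls and 113.2, 120.8, 117.0 and 92.7 CPM in YAP5SA. Again all YAP5SA libraries were above all controls, 2.72-fold by the fit (log2 fold change 1.44 ± 0.09 SE). Lcn2 was close to the limit of detection, with 1.07, 1.73, 1.43 and 0.83 CPM in controls and 0.32, 0.28, 0.19 and 0.06 CPM in YAP5SA. It passed the filter through its control level, and it rests on 88 counts in controls and 14 in YAP5SA. The ratio of pooled levels, YAP5SA over control, was 0.16 (exact 95% interval 0.09 to 0.29, counting error only).

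For 5 of the 9 genes RefSeq promoters of build GRCm38.p6 were used, and the 250 bases before the start were searched on both strands for letters of NF-kB (its 10-letter motif), C/EBP (TTGCNNAA), STAT (TTCNNNGAA) and TEAD sites (GGAATG). Ltf, Lcn2 and C3 held a C/EBP match, as did 9.57% of all 32841 promoters of that length. None of the 5, which also include Pigr and Cd55, held the letters of NF-kB (7.25% of all promoters), STAT (7.02%) or TEAD (12.6%) in this window. The promoters of Lbp, Hp, Cfb and Cd14 were not among those searched. A match of letters is not a binding site, and no match says nothing of more distant sequence. The 3 promoters with a match are shown 5′ to 3′ on the strand of the gene, because they belong to 1 gene that was higher, 1 that was lower and 1 that overlapped between the groups, and capitals mark the C/EBP letters. They lie at chr9:111019042-111019291 (plus strand, Ltf), chr2:32387740-32387989 (minus strand, Lcn2) and chr17:57228137-57228386 (minus strand, C3).
Ltf: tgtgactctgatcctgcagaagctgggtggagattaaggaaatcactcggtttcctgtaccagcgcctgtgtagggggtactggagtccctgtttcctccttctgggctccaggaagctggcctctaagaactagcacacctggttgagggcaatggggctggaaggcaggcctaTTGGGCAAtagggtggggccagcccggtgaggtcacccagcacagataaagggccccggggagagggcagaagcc
Lcn2: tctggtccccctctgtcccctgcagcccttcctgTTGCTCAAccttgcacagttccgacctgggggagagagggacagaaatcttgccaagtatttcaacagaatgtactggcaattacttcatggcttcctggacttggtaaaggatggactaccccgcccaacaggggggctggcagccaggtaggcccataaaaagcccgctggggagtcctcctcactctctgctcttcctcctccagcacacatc
C3: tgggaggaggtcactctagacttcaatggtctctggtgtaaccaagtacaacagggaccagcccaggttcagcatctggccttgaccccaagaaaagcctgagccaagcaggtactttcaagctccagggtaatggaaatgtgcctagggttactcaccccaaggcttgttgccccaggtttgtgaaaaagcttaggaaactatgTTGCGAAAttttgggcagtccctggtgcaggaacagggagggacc

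Of 7 tested genes in a list of 10 binding partners of the members and related genes, 4 fell, 2 rose and Lrp1 did not pass, where 25.5% of all tested genes fell and 23.6% rose (median log2 fold change −0.92). Trf, Tfrc and Hmox1 are listed as genes of iron and haem handling and not as binding partners. Those that rose were Adgre5 and Trf. Trf, the plasma iron carrier transferrin and a relative of lactoferrin, rose from 23.3, 12.1, 16.6 and 13.9 CPM in controls to 85.7, 129.5, 143.0 and 96.4 CPM in YAP5SA (6.90-fold, adjusted p = 5.47e-05, edgeR). The spread inside both groups was wide, and the groups stayed apart. Tfrc, the transferrin receptor, fell from 830.6 ± 76.7 to 375.0 ± 37.9 CPM. Hmox1, the haem oxygenase that degrades haem taken up with haptoglobin, fell 1.89-fold from 53.3 ± 9.2 CPM, and the lipocalin receptor genes Slc22a17 and Lrp2 fell from low levels (2.04 ± 0.51 to 1.06 ± 0.14 CPM and 7.58 ± 2.36 to 3.30 ± 1.401 CPM). The groups overlapped for Lrp2, with 4.99 CPM in control 3 and 5.24 CPM in YAP5SA 4.

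Pigr was the member that varied most among controls. It had 32.6 and 30.2 CPM in controls 1 and 3 and 12.6 and 12.8 CPM in controls 2 and 4, a spread of 49.3% of the mean where counting error alone gives 5.14%. The YAP5SA libraries had 0.84, 1.33, 1.09 and 0.65 CPM, all below the lowest control. The difference was 22.4-fold (log2 fold change −4.48 ± 0.51 SE), with log2 fold changes between −4.69 and −4.25 under the alternatives tried. Controls 1 and 3 were also the most alike of the 6 control pairs over all genes, with a chi-square per gene of 3.59 against 8.46 to 18.9 in the other pairs. Whether this likeness has a part in the Pigr levels was not tested.

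Other antimicrobial products of mucosal epithelia were tested for 8 of 28 listed genes. Itln1, Lyz1, Bpifb1, Reg3g, Duox2 and Duoxa2 passed the filter on low counts through their control level alone, so their direction was bound to be lower, and no count or median of the list is read as a result. Itln1, an intelectin that binds microbial glycans, had 610 counts in controls and 0 in YAP5SA, at least 199.7-fold lower when the YAP5SA group is set to a floor of 3 counts. Bpifb1, a secreted relative of LBP, had 583 and 3 counts, a ratio of pooled levels of 191 (exact 95% interval 65.0 to 928, counting error only). Duox2 and Duoxa2, the hydrogen peroxide source of the mucosa and its maturation factor, both fell, Duox2 from 8.54 ± 0.89 to 0.39 ± 0.30 CPM and Duoxa2 from 1.33 ± 0.35 to 0.09 ± 0.07 CPM. Lyz1, a lysozyme gene with a near-identical copy and so of uncertain level, had 168 and 0 counts, and the lectin gene Reg3g had 64 and 1. Wfdc2 and Pglyrp1 rose. Wfdc2, a whey acidic protein family member, went from 323.2 ± 14.7 to 645.9 ± 23.5 CPM (adjusted p = 1.4e-11, edgeR), and Pglyrp1, a peptidoglycan recognition protein, from 61.3 ± 13.6 to 149.6 ± 19.5 CPM (adjusted p = 0.000206, edgeR).

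Acute-phase genes other than the members were mostly silent. Of 26 listed, 23 were too low to be tested, at most 0.881 CPM on average in either group, and 10 had 0 counts in all 8 libraries, among them Saa1, Saa2, Crp and Apcs, for which 3 counts would give 0.02 CPM. Ceruloplasmin (Cp), a copper ferroxidase, rose from 1.26, 0.92, 1.58 and 1.80 CPM in controls to 13.3, 17.8, 13.1 and 18.6 CPM in YAP5SA, with no overlap (11.4-fold, adjusted p = 4.18e-11, edgeR). The metallothionein genes Mt1 and Mt2, which encode metal buffers inside the cell and not plasma proteins, both fell. Mt1 went from 551.2 ± 62.0 to 143.0 ± 7.3 CPM and Mt2 from 343.9 ± 26.2 to 77.2 ± 3.7 CPM. Liver and neutrophils are known sources of Lbp, Hp and Ltf, and markers of both were low. The 8 hepatocyte markers summed to 4.73 to 7.48 CPM in controls and 0.51 to 1.21 CPM in YAP5SA, with Afp, the most abundant, lower in YAP5SA and Tat at 0. Afp passed the filter on low counts through its control level alone. The 8 neutrophil markers summed to at most 0.204 CPM in controls and 0.13 to 0.47 CPM in YAP5SA, with Elane, Mpo and Mmp8 at 0 and Ly6g, the most abundant, at 0.04 ± 0.05 and 0.10 ± 0.10 CPM. Tek, the most abundant endothelial marker, was at 8.88 ± 2.98 and 0.32 ± 0.26 CPM, and Col1a2, the most abundant mesenchymal one, at 0.80 ± 0.24 and 0.34 ± 0.22 CPM.

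Of 8 markers of macrophages and other leukocytes, cells that also express Cd14, 3 were tested, and Cd68 and Cd74 were lower and Csf1r was higher. Cd74 passed the filter on low counts through its control level alone and Csf1r through its YAP5SA level alone. Their directions were thus fixed by the filter. The markers summed to 20.3 to 39.8 CPM in controls and 9.89 to 11.1 CPM in YAP5SA, most of it Cd68 (28.6 ± 8.0 and 7.88 ± 1.15 CPM), a lysosomal protein. Csf1r went from 0.19 ± 0.07 to 1.49 ± 0.60 CPM, and the 5 untested markers overlapped between the groups. No marker of this list was at 0 in all libraries, and Ptprc, the pan-leukocyte marker, was at 0.51 ± 0.18 and 0.39 ± 0.11 CPM. The part of leukocytes in the level of Cd14 was not tested. In bulk RNA, fewer cells of a type and less RNA per cell cannot be told apart. Of airway secretory markers, 2 of 6 were tested and both rose, Cyp2f2 from 0.23 ± 0.12 to 181.8 ± 21.8 CPM and Sftpd, a lung and gut collectin, from 211.3 ± 14.8 to 271.7 ± 6.1 CPM. Cyp2f2 passed the filter on low counts through its YAP5SA level alone, so it could only rise. Scgb3a2 and Bpifa1 were at 0 in all libraries, and Scgb1a1 was at 0.12 ± 0.18 CPM in YAP5SA. The squamous markers summed to 95.04 to 146.1 CPM in controls and 895.4 to 1014 CPM in YAP5SA, nearly all of it Krt4, with Krt5 and Trp63 at 0 in YAP5SA. The parts of these markers in the levels of the 9 genes were not tested.

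**Figure D2:**
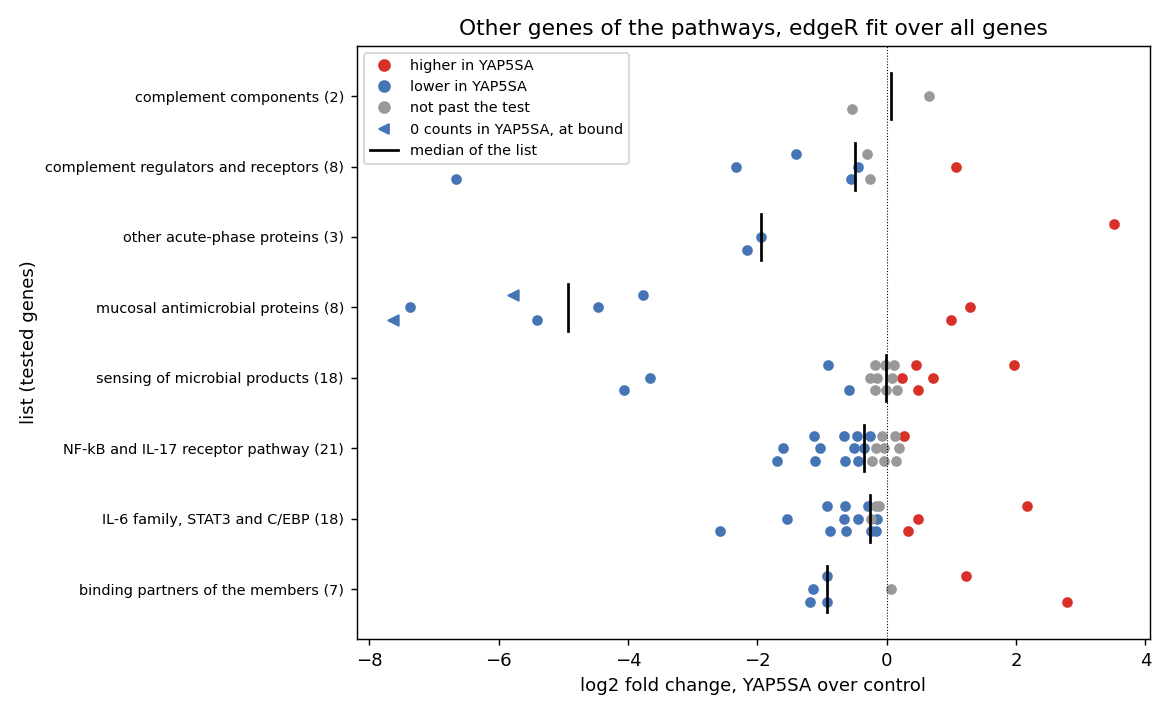
Log2 fold change (YAP5SA over control) of every tested gene in 8 lists of related genes, 1 point per gene, with the number tested beside each list, triangles for Lyz1 and Itln1 at their bounds and a line at the median. The 6 lower genes of the mucosal antimicrobial list were tested only through their control level, and the list for sensing of microbial products is centred near 0.

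Of 21 NF-kB and IL-17 receptor genes, all tested, 12 fell, 1 rose and 8 did not pass, where 25.5% of all tested genes fell and 23.6% rose (median log2 fold change −0.35, all tested genes 0.00). The most abundant of them, the kinase gene Chuk, fell from 125.9 ± 7.3 to 99.1 ± 4.5 CPM. Nfkbie, Birc3 and Nfkbiz, all known to respond to NF-kB themselves, fell 3.25-fold, 3.04-fold and 2.05-fold, and the subunit genes Relb, Nfkb2 and Rela fell 2.16-fold, 1.58-fold and 1.42-fold. Nfkb1 was the gene that rose, from 91.2 ± 3.8 to 110.1 ± 1.6 CPM (adjusted p = 0.000283, edgeR), and with scaling by library size alone or without YAP5SA 4 the number that rose was 2. Tnfaip3, the feedback inhibitor A20, was at 29.3 ± 3.2 and 28.3 ± 1.7 CPM (adjusted p = 0.684). Nfkbia fell by 0.25 on the log2 scale (adjusted p = 0.0484, edgeR), and no alternative setting except leaving out control 2 or control 4 kept it past the threshold.

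Of 18 tested genes of the IL-6 family, STAT3 and C/EBP list (22 listed), 12 fell and 3 rose, beside 25.5% and 23.6% of all tested genes (median log2 fold change −0.26). Jak1, the most abundant, went from 181.7 ± 3.1 to 163.4 ± 2.6 CPM (adjusted p = 0.00974, edgeR), and without the filter on low counts it did not pass (adjusted p = 0.0695). The receptor gene Il6ra fell from 3.50 ± 0.63 to 0.59 ± 0.29 CPM, and Osmr fell 2.92-fold to 7.73 CPM. Il6ra, counted among the 12, passed the filter on low counts through its control level alone, so its direction is not read as a result. Lifr fell 1.54-fold, Jak2 fell from 119.0 ± 3.4 to 64.9 ± 3.8 CPM (adjusted p = 4.87e-10, edgeR), Stat3 fell 1.22-fold and its feedback target Socs3 1.58-fold. The 3 genes that rose were all C/EBP factors. Cebpa, a regulator of liver, myeloid and epithelial differentiation, had 2.34, 2.44, 3.56 and 2.40 CPM in controls and 11.98, 11.5, 14.4 and 11.1 CPM in YAP5SA, with no overlap (4.49-fold, adjusted p = 2.73e-09, edgeR). Cebpb, a factor known for control of acute-phase genes, rose 1.397-fold with overlapping groups (adjusted p = 0.00252, edgeR), Cebpg rose 1.26-fold, and Cebpd did not pass (3.87 ± 0.83 and 3.26 ± 0.55 CPM). The C/EBP letters shown above stand in the promoters of Ltf, which was higher, Lcn2, which was lower, and C3, which overlapped. The promoters of Lbp, Hp, Cfb and Cd14 were not searched, and a part of C/EBP factors in the levels of the members was not tested.

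**Figure D3:**
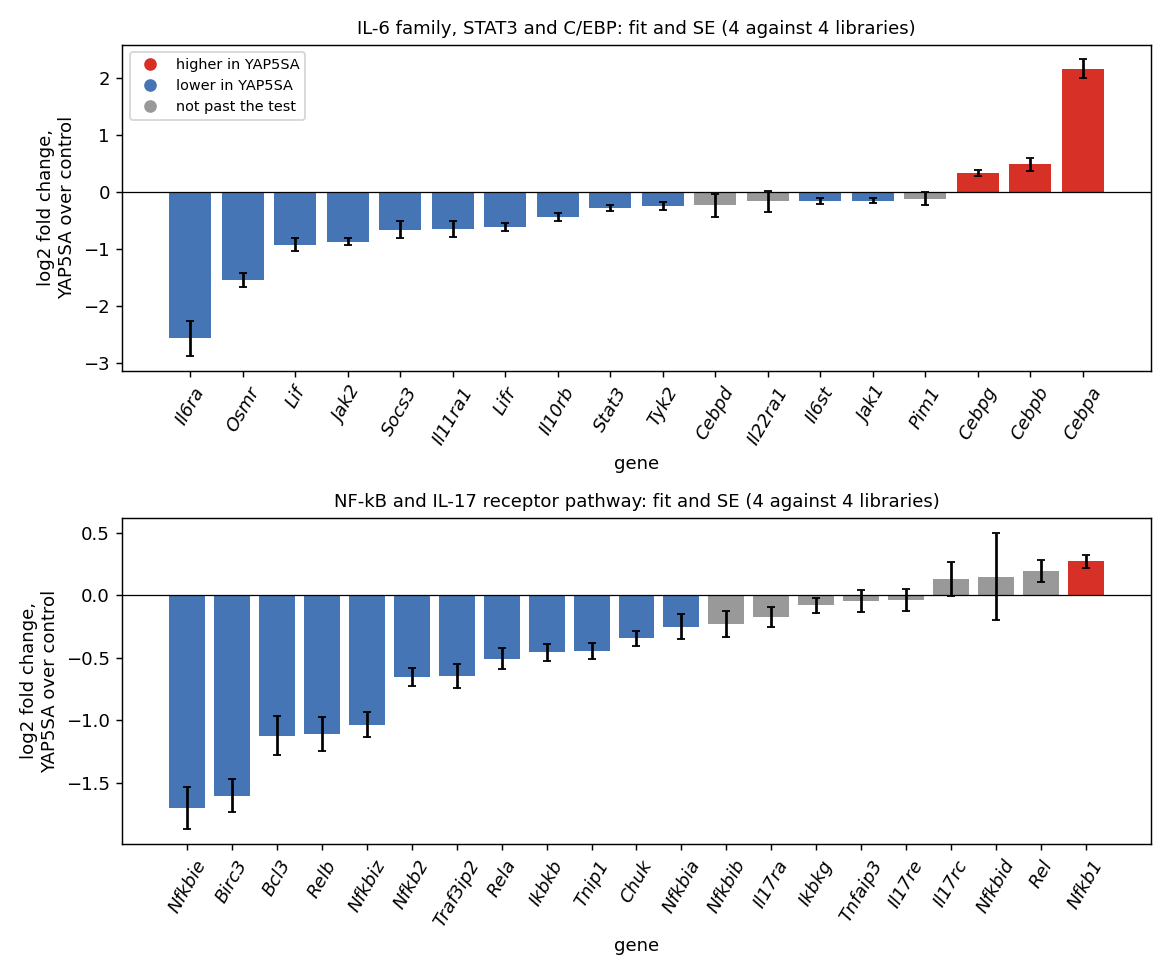
Log2 fold change (YAP5SA over control) with its SE for every tested gene of the IL-6 family, STAT3 and C/EBP list (top) and of the NF-kB and IL-17 receptor list (bottom), from 4 against 4 libraries. Bars are coloured by direction where the test was passed, with Cebpa highest at 2.17 and Il6ra lowest at −2.58. Il6ra was tested only through its control level.

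The order of the 9 genes by level changed with the group. Levels of different genes are compared here in CPM per kb of exon, with exon lengths from GENCODE M21. This length joins the exons of all annotated transcripts of a gene. It can exceed the length of the transcript that is expressed, and the order depends on it. In controls the order was Cd14 (36.9 ± 3.8), Cd55 (21.3 ± 1.6), Ltf (11.8 ± 1.4), Pigr (5.48 ± 2.70), Hp (5.04 ± 0.70), C3 (0.61 ± 0.12), Lbp (0.55 ± 0.04), Lcn2 (0.48 ± 0.15) and Cfb (0.22 ± 0.07). The library ranges overlapped between the neighbours Pigr and Hp, C3 and Lbp, and Lbp and Lcn2, and not between the other neighbours. In YAP5SA the order was Ltf (32.2 ± 3.6), Hp (25.8 ± 4.6), Lbp (21.9 ± 1.0), Cd55 (12.6 ± 0.7), Cd14 (5.84 ± 0.84), C3 (0.73 ± 0.09), Pigr (0.24 ± 0.07), Cfb (0.19 ± 0.08) and Lcn2 (0.08 ± 0.04). Here Ltf and Hp, Hp and Lbp, Pigr and Cfb, and Cfb and Lcn2 overlapped. By this measure Lbp moved from place 7 to place 3. Without division by length, Cd55 stood before Cd14 in controls, and Hp stood behind Lbp and Cd55 in YAP5SA.

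**Figure D4:**
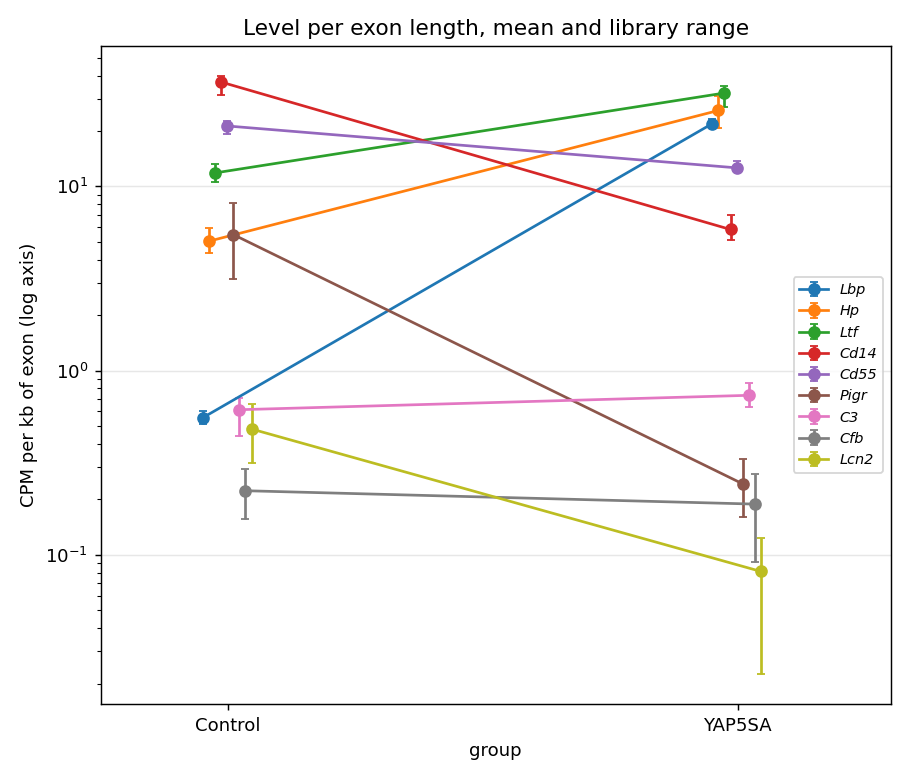
CPM per kb of exon (log axis) of the 9 genes in control and YAP5SA, with points at the mean and bars over the range of 4 libraries. The lines of Lbp, Hp and Ltf go up to the top 3 places in YAP5SA, while Pigr, Cd14 and Lcn2 go down.

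Of the 18 genes that flank the members, 9 were tested, and 2 of these rose and 1 fell. The nearest protein-coding genes with a symbol in the table were taken on each side from GENCODE M21, a choice made after the values of the members were known. Bpi, the neighbour and closest relative of Lbp, had no count in any control and 0.02 ± 0.03 CPM in YAP5SA. Snhg11 on the other side fell (adjusted p = 0.0388, edgeR), a call that was lost without any 1 of 6 libraries. Beside Ltf, the chemokine-binding receptor gene Ccrl2 rose from 2.56 ± 0.19 to 4.89 ± 0.56 CPM (adjusted p = 0.000257, edgeR). The neighbours of Hp (Txnl4b and Dhodh) and of Lcn2 (Ciz1 and Ptges2), Gpr108 beside C3 and Tmco6 beside Cd14 did not pass the test, with adjusted p between 0.206 and 0.861 (edgeR). Among untested neighbours, E230025N22Rik beside Cd14 had means of 1.09 ± 0.46 (control) and 0.17 ± 0.06 CPM (YAP5SA), Fcmr beside Pigr was at 0.09 ± 0.12 and 1.15 ± 0.65 CPM, and both were without overlap between the groups. The other untested neighbours were at 0.392 CPM or less in both group means. Nelfe beside Cfb rose 1.13-fold (adjusted p = 0.0298, edgeR), which was lost with a replicate block (adjusted p = 0.0503) and without control 3, YAP5SA 1, YAP5SA 2 or YAP5SA 3.

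The genes whose log2 CPM over the 8 libraries lay nearest to those of Lbp, after centring and by Euclidean distance among genes with a mean log2 CPM of at least 3, were Sema3a (distance 0.60), Khdc1a (0.73) and Atp10b (0.82). Sema3a, a secreted guidance protein, went from 1.77 ± 0.13 to 89.4 ± 8.7 CPM, Khdc1a, a gene with near-identical copies, from 6.22 ± 1.56 to 221.2 ± 19.0 CPM, and Atp10b, a phospholipid flippase, from 5.23 ± 0.57 to 143.9 ± 6.4 CPM. With 8 libraries in 2 groups, this likeness is mostly that of the group difference.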

How the data were processed

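The authors deposited 1 table of read counts per gene for the 8 libraries, whole numbers that were not normalized, from paired reads of 150 bp per the labels' protocols. The authors name cutadapt, HISAT2 2.0.1, HTSeq 0.6.1 and build mm9, per the submitters' processing notes. Neither annotation release nor strand handling was given in the sources used here, so coordinates are printed only for RefSeq promoters of GRCm38.p6. The 2639 of 56691 rows without a gene name (0.190% to 0.221% of counts) were left out, and rows sharing a symbol were summed. Genes were filtered with filterByExpr (minimum count 10, minimum total 15), scaled by TMM and compared by the robust quasi-likelihood test (genotype only) of edgeR 4.0.16, R 4.3.3, with Benjamini-Hochberg adjustment over 14058 genes and calls under 0.05. SE was taken from the log2 fold change and F (their ratio, F under a square root). The labels name no molecular identifiers, so reads may repeat molecules and intervals hold for counting error alone.

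The 9 genes and all lists were chosen with earlier results of these data known. Named are the members, Yap1, up to 3 called genes in each direction with the smallest adjusted p and the most abundant gene of each list, the most abundant marker of each cell type, and the 3 genes nearest to Lbp; other list members, markers and neighbours were named after their values were seen. Alternatives were library size alone, upper quartile scaling, DESeq2 1.42.0, no filter, each library left out, and the replicate number as a block. Not every gene of the lists is reported here.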

Additional observations from a re-analysis of the deposited data

Results flagged for a closer look

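In 186 groups of 4 libraries (the 9 genes and the other genes named, each in controls and in YAP5SA), 7 had 1 library whose gap to the nearest other, over the range of the group, was above Dixon's critical value for 4 values, where chance marks about 1 in 20 groups. Cd55 had 66.5 CPM in YAP5SA 4 against 58.9 to 59.9 CPM in the other 3, still below every control. Cebpa had 3.56 CPM in control 3 against 2.34 to 2.44 CPM in the others. Nfkb1 had 85.5 CPM in control 2 against 92.8 to 93.7 CPM, and Nfkb2 had 43.7 CPM in YAP5SA 3 against 49.3 to 50.4 CPM. The other 3 genes, near the limit of detection, stood out by a few counts in 1 YAP5SA library: Nod2 (0.177 CPM in YAP5SA 4, 0 in the others), Reg3g (0.0644 CPM in YAP5SA 3, 0 in the others) and Duoxa2 (0.194 CPM in YAP5SA 1 against 0.0552 to 0.0644 CPM).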

How the results depend on the processing

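The members counted as higher (3) and lower (4) stayed at these numbers in all 13 alternatives, and no named gene past the threshold changed sign. Genes changed over the whole table ran from 6371 to 7317 with 1 library left out, genes higher from 2959 to 3595 and genes lower from 3412 to 3722, against 6899, 3315 and 3584 with all libraries; genes of the 8 lists ran from 15 to 16 higher and 44 to 47 lower, against 15 and 45. With 1 library left out, the log2 fold change of each member was fitted with 3 libraries in that group. Over all alternatives Lbp lay between 5.26 and 5.34, C3 between 0.12 and 0.33 and Cfb between −0.45 and 0.00. The labels do not say whether replicate numbers pair the libraries. The correlation of deviations ran from −0.06 to 0.09 within same-numbered pairs and from −0.16 to 0.13 within the others, which cannot decide it. With the replicate block 6586 genes changed (3192 higher, 3394 lower) and the members' counts were the same. Without a filter on low counts 1 complement component was called higher, where 0 were among tested genes, and scaling by library size alone gave 2 rising NF-kB list genes in place of 1, as did leaving out YAP5SA 4. Rising complement regulators went from 1 to 2 without YAP5SA 1. Besides the genes said above to lose their call, Il6st, Jak1 and Tlr3 lost it in at least 1 alternative. Depth limits Cfb and Lcn2, with 36 and 14 counts in YAP5SA.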
